A study of Arabidopsis thaliana with 8 samples.

Results

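The genes MAPKKK13 to MAPKKK21 code for mitogen-activated protein kinase kinase kinases of the MEKK-like group of Arabidopsis thaliana. GBF2 peaks were assigned by the authors to 3 of these 9 genes, MAPKKK14, MAPKKK15 and MAPKKK17, in seedlings treated with tunicamycin, and to 0 of the 9 in seedlings given the solvent DMSO. All peaks whose assigned gene was one of the 9 were taken from the deposited lists. That gave 3 of 767 peaks in the tunicamycin list, 3 of 502 in the authors' list of tunicamycin-specific peaks and 0 of 320 in the DMSO list. The genes were chosen by family name with their peak assignments in these same lists already known, so the counts and scores below are descriptions and were not tested.

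The data come from chromatin immunoprecipitation and sequencing of GBF2, a bZIP factor that binds the G-box, a promoter element of light and stress genes. Every group carried the transgene pGBF2:GBF2-Ypet, in which the GBF2 promoter drives GBF2 joined to the fluorescent protein Ypet, in the Col-0 accession, which keeps its own untagged GBF2, and chromatin of whole seedlings was precipitated with a GFP antibody. Seedlings 5 days old spent 6 h in liquid medium with DMSO or with 0.5 µg/mL tunicamycin, which blocks N-glycosylation and thereby loads the endoplasmic reticulum with misfolded protein. Each treatment had 2 immunoprecipitated libraries and 2 input libraries without antibody. Seedlings without the transgene were not analysed here. Each peak list gives 1 value per peak for a whole treatment, so depth and replicate spread are unknown, and whole seedlings do not show which cells held a peak.

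MAP kinase cascades pass a signal down a chain of kinases: a MAPKKK phosphorylates a MAP kinase kinase (MKK), which phosphorylates a MAP kinase (MPK). Several of MAPKKK13 to MAPKKK21 act through MKK3 and the MAP kinases MPK1, MPK2, MPK7 and MPK14. In Arabidopsis these kinases are known for control by transcription: the cascade starts once stress, wounding or the hormone abscisic acid has raised the amount of the MAPKKK itself.

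MAPKKK15 (AT5G55090) had the highest score of the family, 2.54 in the tunicamycin list. The score is a value that the authors gave each peak, and scores are compared here only inside a single list. The peak lay on chromosome 5 from 22359020 to 22359839 (TAIR10, as for all coordinates here), was 820 bp long and stood at rank 316 of 767. MAPKKK15 thus lay a little above the middle of the list, with 58.8% of the peaks scoring lower.

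MAPKKK14 (AT2G30040), a kinase of the wound response that works upstream of MKK3, followed with a score of 2.48. The MAPKKK14 peak covered 888 bp of chromosome 2, from 12821252 to 12822139, and held rank 378, with 50.7% of the list below it. The median score of the whole list was 2.47, so this peak stood at the middle of the list.

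MAPKKK17 (AT2G32510), which with MAPKKK18 feeds the abscisic acid signal into MKK3, had the lowest score of the trio, 2.34. It lay on chromosome 2 from 13799862 to 13800762, was 901 bp long and held rank 516, with 32.7% of the list below it. None of the 3 kinase peaks reached the upper quartile of the list, 2.75, and all exceeded the lower quartile, 2.26.

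**Figure D1:**
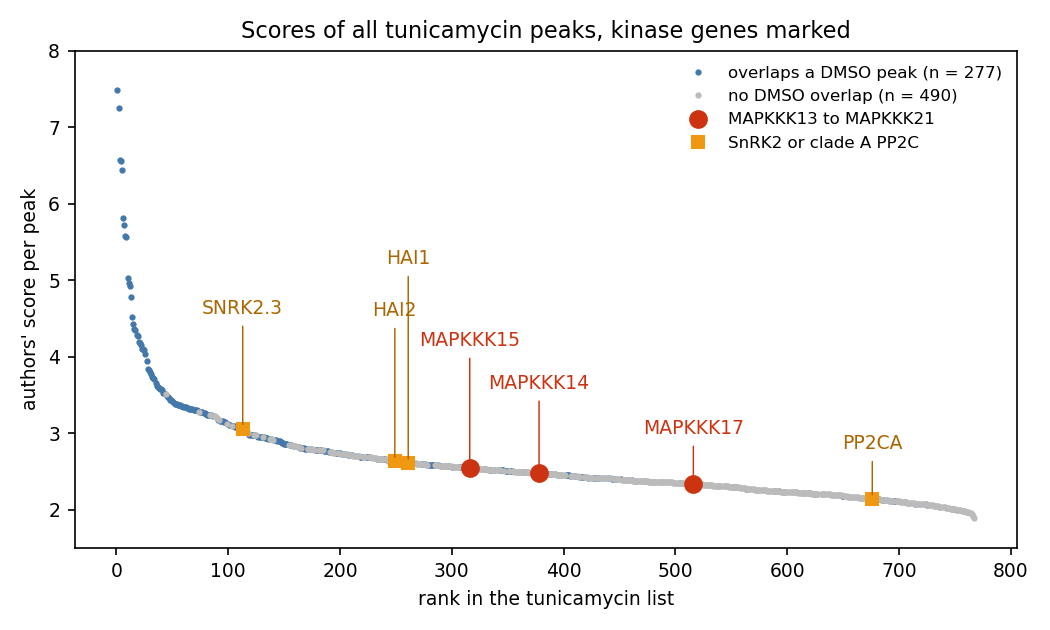
Authors' score of each of the 767 tunicamycin peaks (vertical axis, no unit) against its rank (horizontal axis), with peaks that overlap a DMSO peak in blue, the others in grey, the kinase genes as red circles and genes of abscisic acid signalling as orange squares. MAPKKK15 (2.54), MAPKKK14 (2.48) and MAPKKK17 (2.34) lie on the long flat part of the curve, while SNRK2.3 (3.06) lies above them.

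The other 6 genes had no assigned peak in any list. These were MAPKKK13 (AT1G07150), MAPKKK16 (AT4G26890), MAPKKK18 (AT1G05100), MAPKKK19 (AT5G67080), MAPKKK20 (AT3G50310) and MAPKKK21 (AT4G36950). MAPKKK18 is the kinase whose protein is removed through the phosphatase ABI1 and which acts beside MAPKKK17 in stomata and leaf ageing. MAPKKK20 acts in roots upstream of MKK3 and MPK18. In family trees MAPKKK13 stands close to MAPKKK14, MAPKKK16 to MAPKKK15 and MAPKKK18 to MAPKKK17. A peak was thus assigned to 1 gene of each of these pairs, and none to MAPKKK19, MAPKKK20 or MAPKKK21. The pairs were not checked here, since no protein comparison was run, and nothing is read from this pattern.

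The background is the share of all 27444 nuclear genes that code for protein: 2.27% of them had an assigned peak in the tunicamycin list, 1.52% in the specific list and 0.849% in the DMSO list. Among the 9 kinase genes the count was 3 in the tunicamycin list (33.3%), 3 in the specific list and 0 in the DMSO list. Since these lists were known when the family was picked, nothing is read from the contrast between these shares. The DMSO share would give 0.0764 of 9 genes, so a count of 0 does not set the family apart.

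The 3 peaks had the same position class and similar lengths, and the genes were chosen with their peak assignments known. The authors placed all 3 in their class of promoters of up to 1 kb, which held 76.0% of the tunicamycin list. Their lengths of 820, 888 and 901 bp lay within the interquartile range of the list, 786 to 1080 bp. Peaks of this class without a DMSO overlap had a median length of 830.5 bp. In the authors' column for the strand of the gene, MAPKKK14 had the code 1, and MAPKKK15 and MAPKKK17 the code 2. In score, length and class the kinase peaks were therefore ordinary peaks of the tunicamycin list.

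Each of the 3 peaks lay farther from other GBF2 peaks than the typical peak of the list. The nearest other tunicamycin peak, measured between midpoints, was 59.9 kb from MAPKKK14, at PBCP, the gene of a phosphatase of the photosystem II core. It was 140 kb from MAPKKK17 and 185 kb from MAPKKK15. The median distance over the 767 peaks was 34.4 kb, and 33.9%, 13.0% and 7.69% of the peaks were farther from another peak than those of MAPKKK14, MAPKKK17 and MAPKKK15. The nearest DMSO peak was 64.2 kb from MAPKKK14, 208 kb from MAPKKK15 and 333 kb from MAPKKK17. None of the 3 was therefore part of a cluster of peaks, and no DMSO peak lay near enough to be the same site given to another gene.

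**Figure D2:**
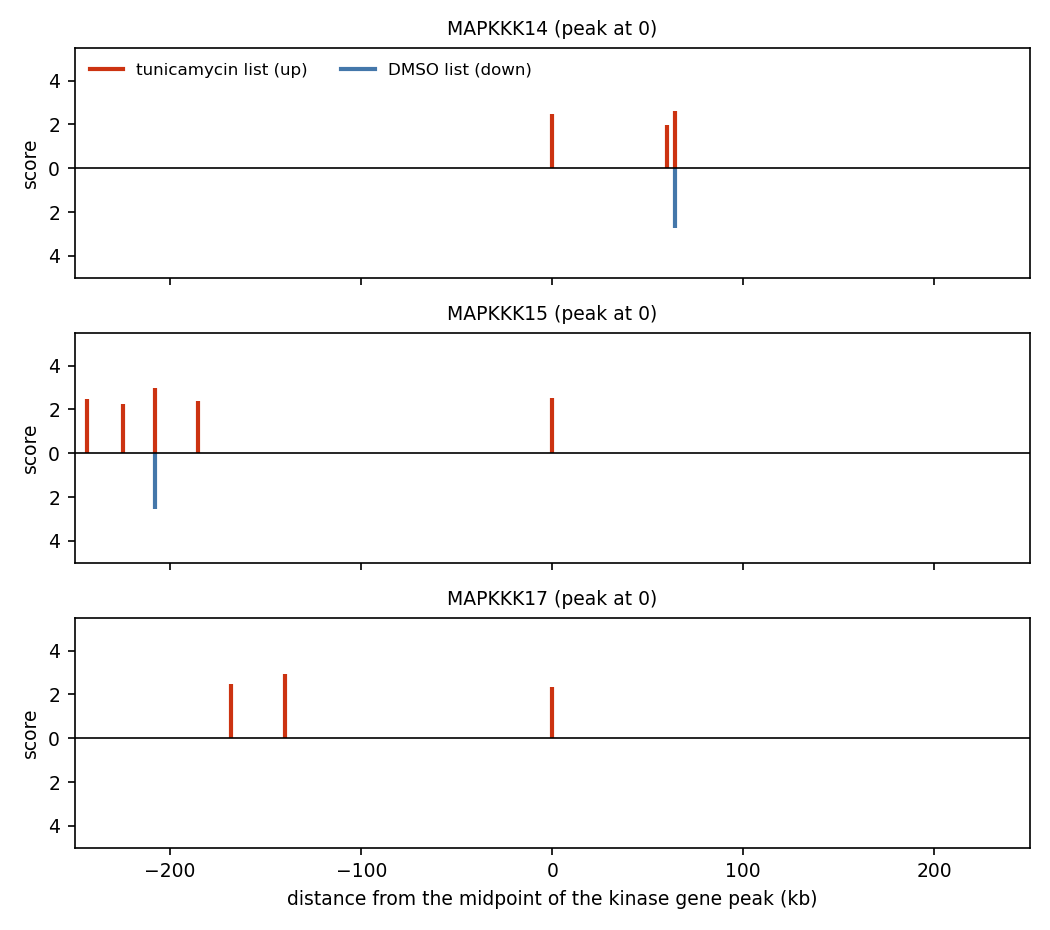
Peaks within 250 kb of the MAPKKK14, MAPKKK15 and MAPKKK17 peaks, by distance between midpoints in kb (horizontal axis) and authors' score (vertical axis), with the tunicamycin list drawn upwards in red and the DMSO list downwards in blue; scores of the 2 lists are not on a common scale. Each kinase peak at 0 has no DMSO peak below it, whereas the peak 64.1 kb from MAPKKK14, at EMB3147, has one in both lists.

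Each peak carries 1 gene in the files, so a gene without a peak can lie beside a peak that the files give to the next gene. In the RefSeq gene order the nearest protein-coding genes on either side of the 9 kinases were 18 in number, and 3 further genes of other kinds lay between such a gene and its kinase. Of these 21 genes, 0 had a peak in any list. Between each of the 6 kinases without a peak and the nearest protein-coding gene with a tunicamycin peak lay 5 genes for MAPKKK19, 8 for MAPKKK21, 13 for MAPKKK13, 17 for MAPKKK18, 19 for MAPKKK16 and 25 for MAPKKK20. The median for these 6 genes was 15, against 16 over all protein-coding genes. MAPKKK18 had as its nearest such gene PDIL2-2, which codes for a protein disulfide isomerase, and MAPKKK20 had MYB77. None of the 6 thus lay directly beside a gene with a peak. AP2C1 (AT2G30020), whose product is a phosphatase that inactivates MAP kinases, is the protein-coding gene next to MAPKKK14 and had no peak; it was named after its values were seen.

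Whether sites like these are also found in DMSO was examined among tunicamycin peaks of like score. From 2.34 to 2.54, the range of the 3 kinase peaks, the tunicamycin list held 201 peaks. Of these 50 shared at least 1 bp with a DMSO peak, or 24.9% (95% Wilson interval 19.4 to 31.3%, counting error only), and 151 did not. The kinase peaks are among the 151. When the list was cut by score into 10 bins, MAPKKK15 and MAPKKK14 fell in the fifth, where 24 of 77 peaks (31.2%) overlapped a DMSO peak. MAPKKK17 fell in the seventh, where 5 of 76 did (6.58%). Most tunicamycin peaks of this strength had no DMSO counterpart, so the kinase genes did as most peaks beside them in the list. The DMSO list is shorter, its depth is unknown, and the part of depth in this was not tested. A site that is missing from it is not shown to be free of GBF2.

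**Figure D3:**
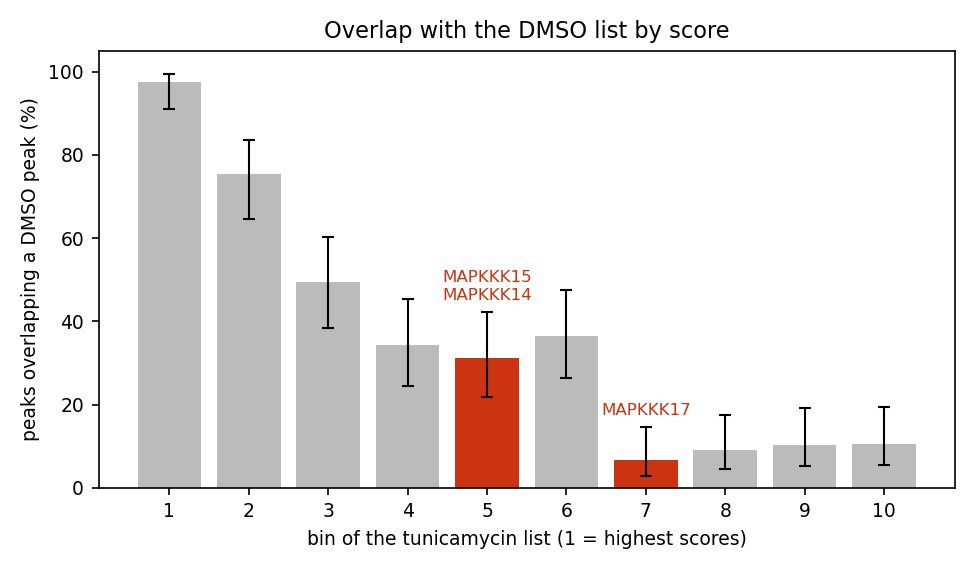
Share of tunicamycin peaks that overlap a DMSO peak (vertical axis, %) in 10 bins of the list from the highest to the lowest scores (horizontal axis), with 95% Wilson intervals as error bars and the bins of the kinase genes in red. The share is 31.2% in the bin of MAPKKK15 and MAPKKK14 and 6.58% in that of MAPKKK17.

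Within the 490 tunicamycin peaks that overlapped no DMSO peak, which leave out most of the strongest sites, MAPKKK15 and MAPKKK14 were in the upper part. Of these 490 peaks, 76.9% scored lower than that of MAPKKK15, 68.0% lower than that of MAPKKK14 and 46.3% lower than that of MAPKKK17. In the authors' own specific list their ranks were 131, 176 and 285 of 502. That list is longer than the set of 490, so a place in it does not by itself mean no DMSO overlap. The genes most like MAPKKK15 in rank over the DMSO and tunicamycin lists were CIPK20, a kinase gene (score 2.55), the transfer RNA gene AT5G08075 (2.54) and PSBP-1, a gene of the oxygen-evolving complex (2.55). All of these had 0 DMSO peaks and a promoter peak under tunicamycin, and their likeness is one of position in 2 lists only.

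The other cascade genes counted here carried no peak, and MAPKKK genes outside the MEKK group were not counted. The families counted were 12 other MAPKKK genes of the MEKK group, 10 MKK genes, 20 MPK genes and 5 MAP kinase phosphatase genes, 47 in all. Of these, 0 had a peak in the DMSO, tunicamycin or specific list. The 0 includes MKK3, the shared partner of these MAPKKKs, and the MAP kinases MPK1, MPK2, MPK7 and MPK14 downstream of it. It also includes MEKK1, the kinase upstream of MPK4 in immune signalling, YDA, which acts in stomatal patterning, and MPK3 and MPK6, the best known stress MAP kinases. The tunicamycin share over all genes would give 1.07 of 47, so the 0 was not read as a difference from other genes. The difference between the 9 kinases and these 47 genes was not tested.

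**Figure D4:**
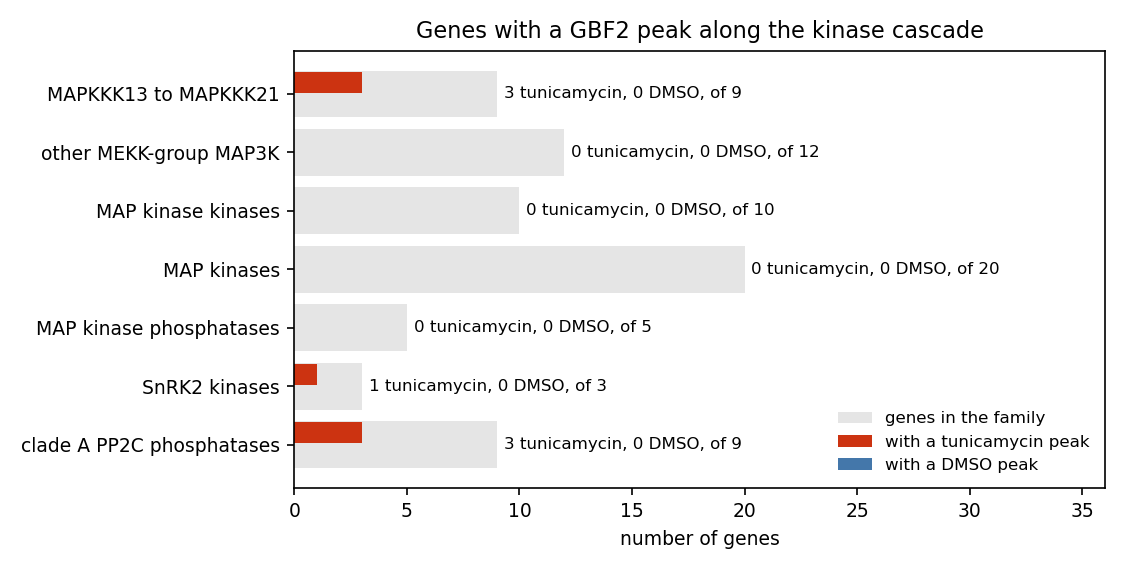
Number of genes (horizontal axis) in each family counted (grey), with those that had a tunicamycin peak in red and a DMSO peak in blue. Tunicamycin peaks were assigned to 3 of 9 genes of MAPKKK13 to MAPKKK21 and to 0 of the 47 other cascade genes counted. They were also assigned to 4 of the 12 SnRK2 and clade A phosphatase genes. The shares over all genes would give 0.204, 1.07 and 0.272 for these 3 groups. The DMSO count is 0 in every family, and no difference between families was tested.

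Abscisic acid reaches MAPKKK17 and MAPKKK18 through its core pathway, in which clade A protein phosphatases 2C hold SnRK2 kinases off until the hormone is bound. Of 3 SnRK2 genes, SNRK2.2, SNRK2.3 and OST1, and 9 phosphatase genes, 4 had a tunicamycin peak and 0 a DMSO peak. The shares over all genes would give 0.272 and 0.102 of 12, and since these genes too were listed with earlier results known, nothing is read from that contrast. Receptor genes of the hormone and other SnRK2 genes were not counted. Among the latter, SNRK2.7 had a tunicamycin peak (2.29, rank 553). SNRK2.3 (AT5G66880) had the highest score, 3.06 at rank 113, on chromosome 5 from 26709612 to 26710432, and it too was a promoter peak of up to 1 kb. This is above the score of each of the 3 MAPKKK peaks in the same list. The phosphatase genes HAI2 (2.63), HAI1 (2.61) and PP2CA (2.14) spanned the range around the MAPKKK scores. None of these 4 peaks overlapped a DMSO peak, which holds for 490 of the 767 tunicamycin peaks. SNRK2.3 lay in the second of the 10 score bins, where 75.3% of the peaks did overlap one, a larger share than in the bins of the MAPKKK peaks. ABI1, the phosphatase that acts on MAPKKK18, had no peak, and neither did SNRK2.2 and OST1. Between MAPKKK19 and SNRK2.3 lie 20 protein-coding genes, and between MAPKKK20 and SNRK2.2 lie 18, so neither pair are direct neighbours.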

How the data were processed

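The tools named in the submitters' processing notes are MACS2 2.1.2, SAMtools 1.8, Bowtie 1.1.2, cutadapt 1.8.1 and FastQC 0.11.5, with the build TAIR10. How they were set, how inputs were used and whether replicates were pooled is not given in the sources used here. For each of 3 lists the authors deposited a score per peak, named signal value per the file headers, a length in bp, a position class and 1 gene. The labels' treatments were matched to the lists by name.

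From these, ranks, overlaps (at least 1 bp, checked on simulated peaks), distances between midpoints and counts by gene were computed. Names, gene kinds and gene order came from a RefSeq table of TAIR10.1, whose coordinates were used to put the genes in order. It matched 727 of 744 tunicamycin and 285 of 292 DMSO gene identifiers, and all 9 kinases by symbol. Members and gene lists were chosen with earlier results of these data known. Genes planned to be named were the 9 members, list genes, neighbours with a peak and the 3 genes nearest in rank to the top member. PBCP, EMB3147, PDIL2-2, MYB77, AP2C1 and SNRK2.7 were named outside that plan. No test was run, since no list gives values per library. Searches for the G-box and protein comparisons were planned and not run, because no sequences were used here. The software was SciPy 1.17.1, numpy 2.4.6, pandas 2.3.3 and matplotlib 3.10.9 under Python 3.11.15.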

Additional observations from a re-analysis of the deposited data

How the results depend on the processing

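With the strongest 50% of each list, 2 of the 9 kinase genes had a tunicamycin peak and 2 a specific one, since MAPKKK17 drops out of both; MAPKKK14 and MAPKKK15 stay. With the promoter class of up to 1 kb alone the counts were 3 and 3. The DMSO count and the number of kinase peaks overlapping a DMSO peak were 0 under each setting run, including overlap of at least 50% of both peaks and midpoints within 200 bp. Over all genes of the RefSeq table in place of protein-coding ones, 1.92% had a tunicamycin peak, 1.27% a specific peak and 0.752% a DMSO peak. Settings chosen after the data were seen gave 3 SnRK2 and clade A phosphatase genes in place of 4. This held in the strongest 50% and in the promoter class, and both gave 0 of the other cascade genes counted. Under the 2 stricter overlap rules, also chosen then, 24.4% and 21.9% of peaks of like score overlapped a DMSO peak. The 3 planned settings on the G-box and on protein identity were not run, as no sequences were used. Leaving out a replicate was not possible, and no paired analysis was possible because the lists hold no values per library. Depth is unknown, so it sets no stated limit on a missing peak.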
